A study of Mus musculus with 6 samples.

Results

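The genes described here work in germ cells: 15 genes of meiotic chromosomes and of entry into meiosis, 11 genes of the piRNA pathway, 7 regulators of germ cells and 9 other genes known for expression in the testis. These 42 genes were chosen by name, with earlier results of these data known. Every probe annotated with one of them was taken, detected or not. This gave 62 probes out of 34885 with 1 gene symbol and 42 genes out of 19057. Of the 42 genes 30 had 1 probe and 12 had several.

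Expression was measured on 6 Illumina bead arrays in E14 cells, which are embryonic stem cells of the mouse strain 129/Ola. In Δ3/Δ3 cells both alleles of Lsd1 (current symbol Kdm1a) lack exon 3, and in Lox/Δ3 cells 1 allele lacks it and the other is a loxP-flanked, still intact allele. Each genotype had 3 arrays. Both genotypes therefore carry at least 1 deleted allele, and no wild-type cells were compared. The labels give no treatment, and they do not say whether the 3 samples of a genotype were separate clones, so the tests measure the spread between these samples. LSD1 is a demethylase of lysine 4 on histone H3, and the question of the comparison is which transcripts differ when the remaining intact allele is lost.

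Between 18506 and 19799 probes were detected per array (detection p under 0.05), with raw signal medians of 73.8 to 83.7. Kdm1a, the targeted gene, measured 10.20 to 10.56 on the Δ3/Δ3 arrays and 11.76 to 12.06 on the Lox/Δ3 arrays (log2 signal), a log2 difference of -1.56 ± 0.15 (SE; limma adjusted p = 0.0128). Whether its probe lies in the deleted exon was not examined. All 8 markers of embryonic stem cells were detected on every array. Of 9 fibroblast markers, which would show feeder cells, 5 were detected on no array (Col1a2, Col3a1, S100a4, Dcn and Lum), and the summed signal of the list was 2792 to 3778 in Δ3/Δ3 and 1519 to 1996 in Lox/Δ3 cells. Among the 3 detected on every array, Thy1 and Mmp2 differed by 1.61 and 0.97 and Col1a1 by -0.67, the last with overlap. Of 10 primitive endoderm markers Foxa2, Afp and Ttr were detected on no array, and the summed signal of the list was 14456 on Lox/Δ3 array 3 against 3487 to 5183 on the other 5 arrays. The list of 8 primordial germ cell markers, which shares Dnd1 and Kit with the genes described here, summed to 15617 to 16434 in Δ3/Δ3 and 8701 to 12332 in Lox/Δ3 cells, and all 8 were detected on at least 1 array. Of the 7 tested, 4 stood higher (Dppa3, Tfap2c, Ifitm3 and Nanos3) and 3 lower (Dnd1, Kit and Prdm14). Nanos3 was detected on 3 Δ3/Δ3 and 0 Lox/Δ3 arrays. It entered the test only through its Δ3/Δ3 arrays, so its direction was set by the filter. The part of these cell types in the differences below was not tested. In such bulk samples fewer cells of a type and less RNA per cell cannot be told apart.

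Meiosis is the cell division by which germ cells reduce their chromosome set. Chromosomes are held together by a germline form of cohesin, are organised along a protein axis, are cut and repaired by recombination enzymes, and are zipped into pairs by the synaptonemal complex. The piRNA pathway uses PIWI proteins loaded with small RNAs to silence transposons in germ cells. Its helicases and Tudor-domain proteins gather in granules near mitochondria. Many genes of both kinds are silent in somatic cells, where DNA methylation and repressor complexes that recognise E-box and E2F sequences keep them off, and embryonic stem cells are known to express some of them.

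The stretch before the transcription start is shown for 6 genes, because it holds the E-box letters CACGTG or differs between neighbouring relatives. Sequences are the 250 bases before the start from RefSeq, build GRCm38.p6, read on the gene's own strand. RefSeq windows matched 35 of the 42 genes. CACGTG, which reads the same on both strands, was present in the windows of 14 of these 35 genes (40%), against 6.86% of 27025 genes with a window. TCCCGC or its reverse complement GCGGGA, letters of E2F sites, was present in 13 of 35 (37.1%), against 18.8% of all genes. Matches of these motifs can overlap by a base at their ends. Both motifs hold a CG, and these shares were not matched for CG content, whose medians are given below. In the first 4 sequences CACGTG is in capitals, and they were picked to show a gene higher in Δ3/Δ3 cells (Brdt, chr5:107330944-107331193, plus strand), a pair measured lower there (Ddx4, chr13:112652311-112652560, minus strand, and Tdrd9, chr12:111971309-111971558, plus strand) and a gene not detected (Sycp3, chr10:88459337-88459586, plus strand). Tdrd9 was detected on Lox/Δ3 arrays only, and so it entered the test only through them.
Brdt: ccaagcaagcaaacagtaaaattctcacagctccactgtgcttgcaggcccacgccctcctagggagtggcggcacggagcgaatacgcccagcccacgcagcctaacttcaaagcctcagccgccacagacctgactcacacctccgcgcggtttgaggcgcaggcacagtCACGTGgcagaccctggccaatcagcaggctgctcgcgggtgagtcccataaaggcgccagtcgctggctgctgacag
Ddx4: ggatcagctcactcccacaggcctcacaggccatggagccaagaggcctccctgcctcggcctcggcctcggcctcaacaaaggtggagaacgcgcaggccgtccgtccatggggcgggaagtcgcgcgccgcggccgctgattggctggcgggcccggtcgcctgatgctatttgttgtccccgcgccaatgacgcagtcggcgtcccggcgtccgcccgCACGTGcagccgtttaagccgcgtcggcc
Tdrd9: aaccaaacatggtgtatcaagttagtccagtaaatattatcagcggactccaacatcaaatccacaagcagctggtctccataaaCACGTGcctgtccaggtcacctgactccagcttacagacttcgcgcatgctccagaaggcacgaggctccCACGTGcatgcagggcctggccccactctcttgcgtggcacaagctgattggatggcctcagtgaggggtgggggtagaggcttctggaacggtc
Sycp3: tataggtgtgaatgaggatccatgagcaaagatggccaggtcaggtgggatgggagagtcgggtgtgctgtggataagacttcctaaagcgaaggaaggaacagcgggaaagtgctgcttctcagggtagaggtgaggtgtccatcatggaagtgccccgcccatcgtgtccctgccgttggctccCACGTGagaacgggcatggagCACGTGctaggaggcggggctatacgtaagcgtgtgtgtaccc
The other sequences are those of the relatives Tex19.1 (chr11:121145893-121146142, plus strand) and Tex19.2 (chr11:121118678-121118927, minus strand), with each CG in capitals. The window of Tex19.1 held 15 CG pairs and that of Tex19.2 held 2, where the median over the 35 genes was 15 and over all genes 6.
Tex19.1: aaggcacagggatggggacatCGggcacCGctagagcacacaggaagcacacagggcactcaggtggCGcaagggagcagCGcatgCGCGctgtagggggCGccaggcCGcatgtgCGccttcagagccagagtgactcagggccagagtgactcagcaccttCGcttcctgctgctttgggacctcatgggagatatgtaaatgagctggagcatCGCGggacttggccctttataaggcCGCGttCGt
Tex19.2: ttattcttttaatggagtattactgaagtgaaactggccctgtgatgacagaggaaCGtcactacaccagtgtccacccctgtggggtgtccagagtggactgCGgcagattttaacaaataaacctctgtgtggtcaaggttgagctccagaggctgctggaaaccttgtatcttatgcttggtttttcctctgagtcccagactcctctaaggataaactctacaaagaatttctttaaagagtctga
A match of letters is a description of these windows and says nothing of what binds there.

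Part of the germline programme was on the arrays in both genotypes and part was not. Of the 62 probes 35 were detected on all 6 arrays and 24 on none. Each array detected 35 to 37 of them, with 37, 37 and 35 in Δ3/Δ3 and 36, 36 and 37 in Lox/Δ3 cells, and the means were equal at 36.3. In an exact permutation test over the 6 arrays this gave a two-sided p of 1, where 3 arrays against 3 cannot go below 0.1. The 11 genes with no detected probe were Sycp1, Sycp3, Hormad1, Dmc1, Spo11, Tex15, Mael, Tdrd1, Tdrd6, Dmrt1 and Slc25a31. A probe that is not detected gives only an upper limit for its transcript, and one weak probe cannot speak for all isoforms.

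Among the genes not detected were central parts of the meiotic machinery: Sycp1 and Sycp3, which encode the transverse filament and an axis protein of the synaptonemal complex, Spo11, which makes the breaks that start recombination, and Dmc1, the strand exchange enzyme of meiosis. The Sycp3 probe had raw signals of 50.4, 52.7 and 46.6 in Δ3/Δ3 and 52.2, 49.3 and 50.1 in Lox/Δ3 cells, all below the array medians. Mael, a piRNA factor of germ granules, had 52.7, 44.5 and 42.5 against 45.6, 54.4 and 45.8. Over the 24 probes that were never detected raw signals ran from 42.5 to 96.3 and log2 differences from -0.21 to 0.20. Sycp2, another axis gene, was seen by 1 of its 2 probes on Δ3/Δ3 arrays 1 and 2 and on no Lox/Δ3 array, at 5.72, 5.64 and 5.29 against 5.16, 5.36 and 5.30, and these ranges overlap. Sycp2 was not detected on Δ3/Δ3 array 3 either, so no bound on its fold is given, and it was not tested. Of the 8 genes that were not tested and had a RefSeq window 6 held CACGTG (Sycp1, Sycp3, Hormad1, Mael, Tdrd1 and Slc25a31), and of the 27 tested genes with a window 8 did.

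The remaining 30 genes were detected on at least 3 arrays and were tested together with all other detected genes. At a threshold of 0.05 on limma's p, adjusted by Benjamini-Hochberg across 10712 genes, 0 of the 30 passed. Over all genes 1.31% passed, 1.03% higher and 0.280% lower in Δ3/Δ3. At an unadjusted p under 0.05 stood 17 of the 30, 8 higher and 9 lower, where 18.2% of all genes did, 9.70% higher and 8.47% lower. Without Δ3/Δ3 array 3 that count was 11 of 30. Tdrd9, counted among the lower genes here and in the counts without overlap, entered only through its Lox/Δ3 arrays. In 14 of the 30 the arrays of the genotypes did not overlap, 7 higher and 7 lower, where 23.8% of all genes did not overlap, 11.3% higher and 12.5% lower. The differences went both ways: the median over the 30 genes was 0.0085 on the log2 scale against -0.025 over all genes, while the median size without regard to sign was 0.39 against 0.18. With no filter on weak probes, which keeps all 42 genes, 16 were at an unadjusted p under 0.05, 8 higher and 8 lower, against 14.6% of 19057 genes, 7.32% higher and 7.26% lower. The arrays of 15 of the 42 did not overlap, against 18.9% of those genes. The 42 genes were chosen with earlier results of these data known, so these counts and sizes cannot show an excess over all genes. Values below are log2 signals after background correction and quantile normalisation, and differences are Δ3/Δ3 minus Lox/Δ3.

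**Figure D1:**
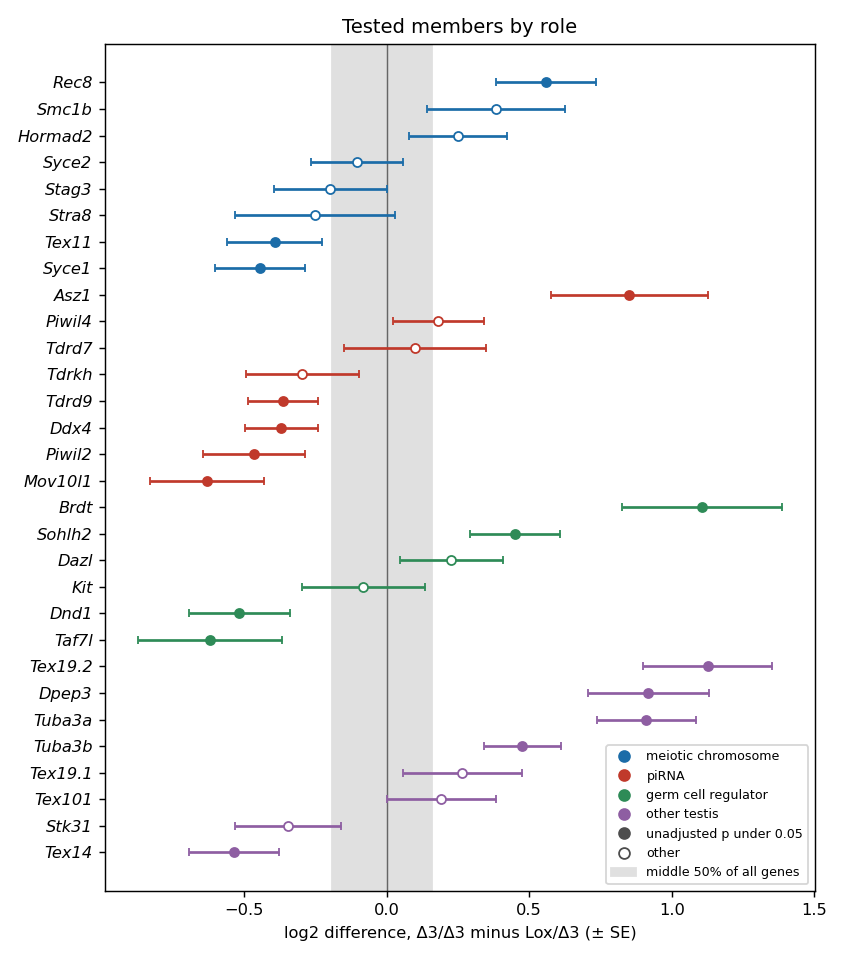
Log2 difference between Δ3/Δ3 and Lox/Δ3 cells for the 30 tested genes, grouped by role, with SE bars from limma and 3 arrays per genotype. Filled points have an unadjusted p under 0.05, and the grey band spans the middle of all genes, from -0.19 to 0.16; Tex19.2, Brdt, Dpep3, Tuba3a and Asz1 lie farthest right, and Mov10l1 and Taf7l farthest left.

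The largest differences were in testis genes and in the chromatin reader Brdt. Tuba3a, which encodes an alpha tubulin of the testis, was at 12.13, 12.16 and 12.56 in Δ3/Δ3 and at 11.16, 11.37 and 11.60 in Lox/Δ3 cells. All Δ3/Δ3 arrays lay above all Lox/Δ3 arrays. The means were 12.29 ± 0.24 and 11.38 ± 0.22 (SD, n = 3), a difference of 0.91 ± 0.17 (SE), or 1.88-fold, with a limma adjusted p of 0.0531. That value lies close to the threshold: Tuba3a passed under 8 of 17 alternatives, with adjusted p from 0.0183 to 0.140 over all 17.

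Tuba3a had 4 probes, all detected on every array, and they differed by 0.75, 0.77, 0.90 and 0.91. In a test of all 19652 detected probes singly, where 1.15% passed, the probe at 0.77 passed (limma adjusted p = 0.0486) and the other 3 had adjusted p from 0.0529 to 0.0644. Its arrays were at 11.81, 11.83 and 12.03 against 10.92, 11.16 and 11.26. Leaving out Lox/Δ3 array 3 kept its call, at a limma adjusted p of 0.0412. Leaving out any of the other 5 arrays lost it, at adjusted p from 0.108 to 0.151. The relative Tuba3b, another testis alpha tubulin, was at 11.28, 11.49 and 11.55 against 10.92, 10.87 and 11.10, also without overlap. Its difference was 0.48 ± 0.13 (SE; limma adjusted p = 0.120). The gap between the Tuba3a and Tuba3b probes within an array was larger in Δ3/Δ3 by 0.43 (exact permutation p = 0.1, the smallest possible). This comparison was not among the planned tests. It used the Tuba3a probe of highest mean, which also had the largest difference of the 4. Transcripts of these relatives are very similar, their probe sequences were not examined, and so the signals of the 2 genes may be mixed. The 250 bases before their starts were identical at 173 positions after alignment.

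Tex19.2, a mammalian testis-expressed gene, was at 9.59, 9.58 and 9.04 in Δ3/Δ3 and at 7.86, 8.42 and 8.55 in Lox/Δ3 cells. All Δ3/Δ3 values lay above all Lox/Δ3 values. Its means were 9.40 ± 0.32 and 8.28 ± 0.37 (SD, n = 3) and its difference 1.13 ± 0.23 (SE), or 2.18-fold, the largest of the 30 (limma adjusted p = 0.0598). It passed under 6 of 17 alternatives, with adjusted p from 0.0309 to 0.167 over all 17. Its neighbour Tex19.1, known to be expressed in stem cells and germ cells and to restrain retrotransposons, was at 12.43, 11.72 and 12.28 against 12.11, 11.69 and 11.83, which overlap. Its difference was 0.26 ± 0.21 (SE; limma adjusted p = 0.559), with a 95% interval from -0.21 to 0.74. Between the relatives the differences were 0.86 apart (exact permutation p = 0.1, the smallest possible), a comparison chosen after the values were seen. Both lie on chromosome 11, and the windows printed above show their unlike CG content.

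Brdt encodes a bromodomain protein of spermatocytes and spermatids that binds acetylated histones. Its representative probe was at 9.56, 9.53 and 8.82 in Δ3/Δ3 and at 7.65, 8.39 and 8.54 in Lox/Δ3 cells, without overlap. The difference was 1.11 ± 0.28 (SE), or 2.15-fold (limma adjusted p = 0.0954). A weaker probe of Brdt was tighter, at 7.70, 7.73 and 7.67 against 6.30, 6.35 and 6.78. It differed by 1.23 ± 0.16 (SE), or 2.34-fold, and passed when each probe was tested on its own (limma adjusted p = 0.0301). Without Lox/Δ3 array 3 it passed as well (adjusted p = 0.0316), and without any of the other 5 arrays its adjusted p lay between 0.0534 and 0.116, at differences from 1.14 to 1.24. Another probe of Brdt was detected on no array.

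Dpep3, a membrane dipeptidase gene of the testis, was at 7.44, 7.69 and 7.35 in Δ3/Δ3 and at 6.29, 6.39 and 7.04 in Lox/Δ3 cells. The genotypes did not overlap, with Lox/Δ3 array 3 nearest to the Δ3/Δ3 values. Its difference was 0.92 ± 0.21 (SE), or 1.89-fold (limma adjusted p = 0.0776). Without Lox/Δ3 array 3, the array with high endoderm markers, the difference was 1.15 and Dpep3 passed (limma adjusted p = 0.0278), as did Tuba3a (0.0362) and Tex19.2 (0.0399). Over all 10712 genes 275 passed without that array, where 140 passed with all arrays. In all 8 genes that were higher at an unadjusted p under 0.05 the highest control value was on that array. The same count over all genes was not made. Leaving out the highest control value by itself raises such a difference, and a part of endoderm cells was not tested.

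**Figure D2:**
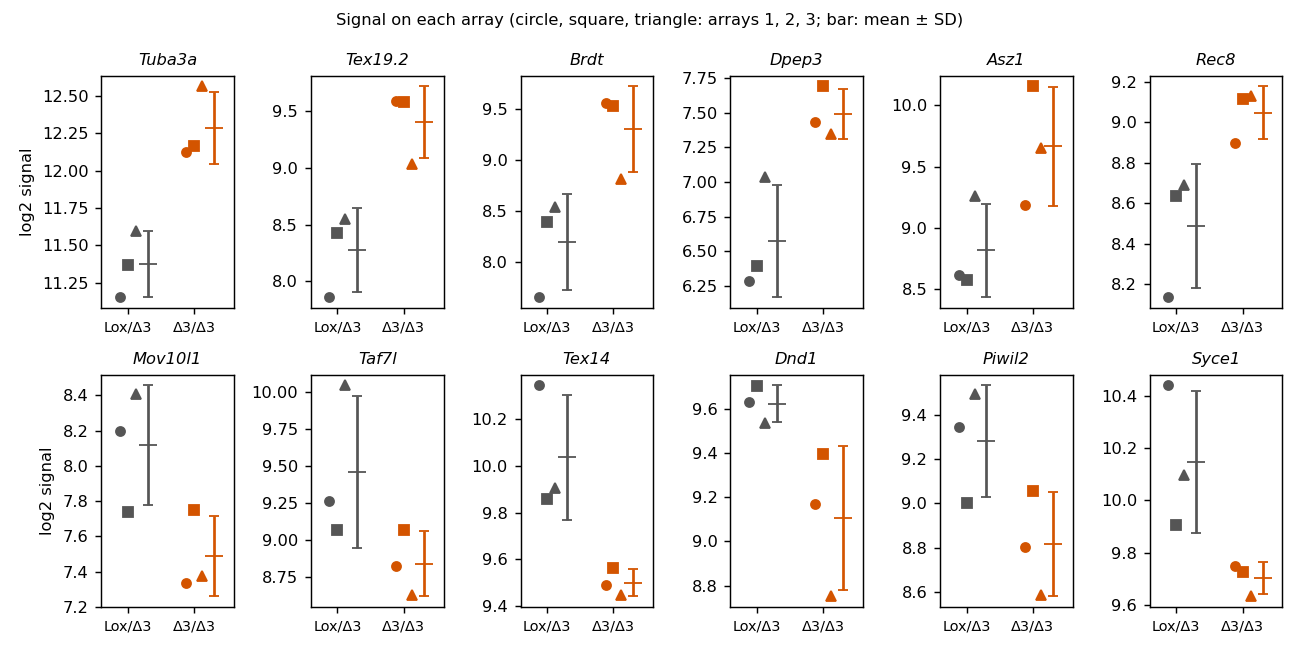
Log2 signal of 12 genes on each array, with Lox/Δ3 in grey and Δ3/Δ3 in orange, symbols for arrays 1 to 3 and bars for the mean ± SD of 3 arrays (each panel has its own log2 axis, which does not start at 0). In the upper row the Δ3/Δ3 arrays lie higher, without overlap except for Asz1; in the lower row they lie lower, with overlap for Mov10l1 and Piwil2.

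The other testis genes were smaller in difference or went the other way. Tex14, needed for the bridges that join dividing germ cells, was at 9.49, 9.56 and 9.45 in Δ3/Δ3 and at 10.34, 9.86 and 9.90 in Lox/Δ3 cells. These ranges did not overlap, and Lox/Δ3 array 1 was the highest. Its difference was -0.53 ± 0.16 (SE; limma adjusted p = 0.130). Stk31, a kinase gene with a Tudor domain, differed by -0.35 and Tex101, a surface protein gene of germ cells, by 0.19, both with overlapping arrays (limma adjusted p = 0.384 and 0.655). Tex101 was detected on 3 of the 6 arrays.

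Of the 8 piRNA genes tested 5 stood lower in Δ3/Δ3 cells, as did 5746 of all 10712 genes. At an unadjusted p under 0.05 were 4 lower and 1 higher, where 8.47% of all genes were lower and 9.70% higher. The 4 lower genes include Tdrd9, which passed the filter only through its Lox/Δ3 arrays, and the other 3 are Mov10l1, Piwil2 and Ddx4. Mov10l1, the helicase that delivers piRNA precursors, was at 7.34, 7.75 and 7.38 in Δ3/Δ3 and at 8.20, 7.74 and 8.41 in Lox/Δ3 cells. The genotypes met at their array 2. Its difference was -0.63 ± 0.20 (SE; limma adjusted p = 0.155).

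Piwil2, the PIWI protein gene also called Mili, was at 8.80, 9.06 and 8.59 against 9.35, 9.003 and 9.49. Here too only the array 2 values overlapped. The difference was -0.47 ± 0.18 (SE; limma adjusted p = 0.221). Piwil4, which encodes the nuclear PIWI protein of fetal germ cells, was at 0.18 ± 0.16 (SE; limma adjusted p = 0.610), with a 95% interval from -0.19 to 0.55.

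Ddx4, the mouse vasa gene, whose helicase marks germ cells, was weak on the arrays. Its representative probe was at 6.34, 6.31 and 6.35 in Δ3/Δ3 and at 6.61, 6.61 and 6.88 in Lox/Δ3 cells, without overlap. The difference was -0.37 ± 0.13 (SE; limma adjusted p = 0.185). A further detected probe was at 5.84, 5.98 and 5.75 against 6.29, 6.48 and 6.34, a difference of -0.51 (limma adjusted p = 0.0995 where each probe was tested), and the last probe was detected on no array. Tdrd9, a helicase with a Tudor domain, was detected on all Lox/Δ3 arrays, at 5.67, 5.56 and 5.81, and on no Δ3/Δ3 array, at 5.28, 5.33 and 5.34. Its level in Δ3/Δ3 is therefore a limit, and it was at least 1.21-fold lower there (limma adjusted p = 0.178). Since Tdrd9 entered the test only through its Lox/Δ3 arrays, its direction was set by the filter.

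Asz1, which anchors piRNA granules at mitochondria, went the other way. It was at 9.19, 10.16 and 9.65 in Δ3/Δ3 and at 8.61, 8.57 and 9.26 in Lox/Δ3 cells, where Δ3/Δ3 array 1 lay just below Lox/Δ3 array 3. The difference was 0.85 ± 0.27 (SE), or 1.80-fold (limma adjusted p = 0.158). Tdrkh, a mitochondrial Tudor protein gene of piRNA trimming, differed by -0.30 on its main probe, with overlap, and by -0.48 on another, without overlap (limma adjusted p = 0.491 over genes and 0.184 over probes). Tdrd7 was at 0.10 ± 0.25 (SE; limma adjusted p = 0.879).

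**Figure D3:**
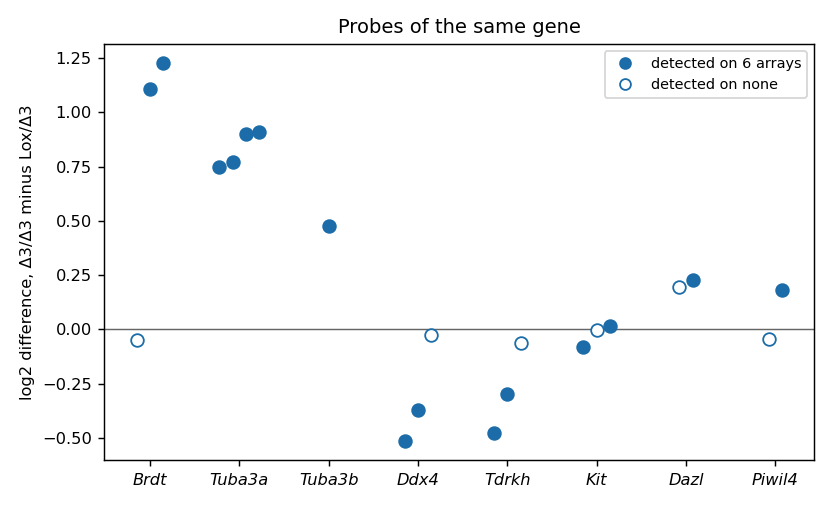
Log2 difference between Δ3/Δ3 and Lox/Δ3 cells for each probe of 8 genes, filled where the probe was detected on all 6 arrays and open where it was detected on none. Detected probes of Brdt, Tuba3a, Ddx4 and Tdrkh stood on the same side of 0 as each other, and those of Kit were at -0.08 and 0.01. The never detected probes of Brdt, Ddx4, Tdrkh, Kit and Piwil4 lay within 0.1 of 0, and that of Dazl was at 0.20.

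Of the meiotic chromosome genes 8 of 15 were tested, with a median of -0.15, and 1 was higher and 2 lower at an unadjusted p under 0.05, where 9.70% of all genes were higher and 8.47% lower. Rec8, the meiotic cohesin subunit that keeps sister chromatids together, was at 8.90, 9.11 and 9.13 in Δ3/Δ3 and at 8.14, 8.64 and 8.69 in Lox/Δ3 cells. The genotypes did not overlap. Its difference was 0.56 ± 0.18 (SE; limma adjusted p = 0.149). The other cohesin subunit genes of meiosis were at 0.38 for Smc1b and -0.20 for Stag3, with overlapping arrays (limma adjusted p = 0.466 and 0.657). Smc1b spread widely in Lox/Δ3 cells, from 9.04 to 10.09, and little in Δ3/Δ3, from 9.87 to 9.98.

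Syce1, a central element protein gene of the synaptonemal complex, was at 9.75, 9.73 and 9.63 in Δ3/Δ3 and at 10.44, 9.91 and 10.10 in Lox/Δ3 cells, without overlap. Its difference was -0.44 ± 0.16 (SE; limma adjusted p = 0.194). Tex11, an X-linked gene of chromosome pairing and crossing over, was at 8.65, 8.84 and 8.90 against 9.44, 8.90 and 9.23, where the genotypes nearly touched. It differed by -0.39 ± 0.17 (SE; limma adjusted p = 0.262). Syce2, the partner of Syce1 in the central element, was at -0.10 and the axis gene Hormad2 at 0.25, both with overlap (limma adjusted p = 0.795 and 0.503).

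Stra8, the gene induced by retinoic acid at entry into meiosis, was detected on all arrays, at 6.997, 7.14 and 7.62 in Δ3/Δ3 and at 8.13, 7.25 and 7.12 in Lox/Δ3 cells. The ranges overlapped, and Lox/Δ3 array 1 stood high. Its difference was -0.25 ± 0.28 (SE; limma adjusted p = 0.703), with a 95% interval from -0.90 to 0.40, and it turned to 0.062 without that array.

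Of 6 germ cell regulators tested 2 were higher and 2 lower at an unadjusted p under 0.05, where 9.70% of all genes were higher and 8.47% lower. Besides Brdt, the higher gene was Sohlh2, a basic helix-loop-helix factor gene of spermatogonia and oocytes, at 8.22, 8.01 and 8.24 against 7.80, 7.43 and 7.89. Its arrays did not overlap, and its difference was 0.45 ± 0.16 (SE; limma adjusted p = 0.188). Dnd1, an RNA-binding protein gene needed for primordial germ cells, was at 9.17, 9.40 and 8.75 in Δ3/Δ3 and at 9.63, 9.70 and 9.53 in Lox/Δ3 cells. All its Δ3/Δ3 values lay below, by a difference of -0.52 ± 0.18 (SE; limma adjusted p = 0.180).

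Taf7l, an X-linked germ cell relative of a general transcription factor subunit, was at 8.82, 9.07 and 8.63 against 9.26, 9.07 and 10.04. Its array 2 values were almost equal, and Lox/Δ3 array 3 stood apart. The difference was -0.62 ± 0.25 (SE; limma adjusted p = 0.248). Leaving out Lox/Δ3 array 3 brought it to -0.33. Dazl, an RNA-binding protein gene that commits cells to the germline, was at 10.61, 10.72 and 10.48 against 10.58, 9.9998 and 10.55. The genotypes overlapped, with a difference of 0.23 ± 0.18 (SE; limma adjusted p = 0.562). Kit, the receptor tyrosine kinase of germ cell migration and survival, was at 10.49, 10.74 and 11.34 against 10.90, 10.84 and 11.07. It differed by -0.08 ± 0.22 (SE; limma adjusted p = 0.886), with a 95% interval from -0.58 to 0.42.

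**Figure D4:**
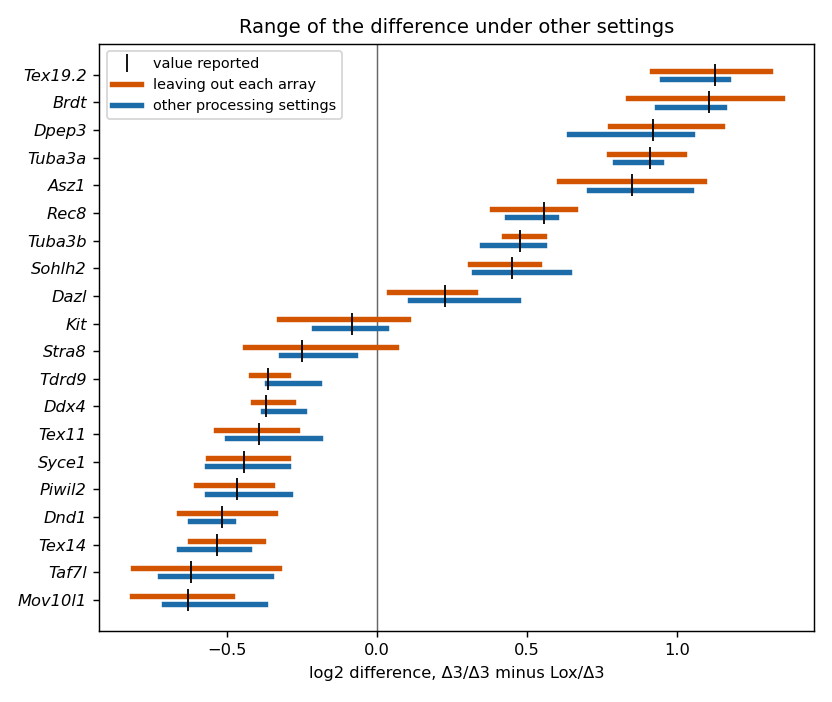
Reported log2 difference of 20 named genes (black tick), with its range when each array was left out in turn (orange) and under 11 other processing settings (blue; 9 for Tdrd9). All ranges stay on 1 side of 0 except those of Kit and Stra8, and that of Tuba3a runs from 0.77 to 1.02.

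Further meiosis, piRNA and late sperm genes, taken from lists by function, numbered 69, of which 56 had a probe and 29 were tested. None passed (0) in limma over all genes, where 1.31% did. At an unadjusted p under 0.05 were 8, 7 higher and 1 lower, against 18.2% of all genes, 9.70% higher and 8.47% lower. Their median was 0.089, against -0.025 over all genes, and their median size without sign 0.25, against 0.18. Of 15 tested meiosis genes 7 stood higher and 8 lower, where 4966 and 5746 of all 10712 genes did. The median of the 15 was -0.016. At an unadjusted p under 0.05 were 2 higher and 1 lower, where 9.70% of all genes were higher and 8.47% lower. Higher was Meiob, which encodes a protein of meiotic recombination that binds single-stranded DNA, at 0.94 ± 0.21 (SE; limma adjusted p = 0.0724). So was Meioc, a gene that prolongs meiotic prophase, at 0.71 ± 0.21 (SE; limma adjusted p = 0.133). The lower gene was Msh4, at -0.43 ± 0.16 (SE; limma adjusted p = 0.203). It was detected on 1 Δ3/Δ3 and 3 Lox/Δ3 arrays. Meiob was at 7.66, 7.54 and 7.54 in Δ3/Δ3 and at 6.36, 7.14 and 6.41 in Lox/Δ3 cells. Without Lox/Δ3 array 2, its highest control, it was the 1 gene of these lists that passed, where 63 of all 10712 genes did.

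Of 10 tested further piRNA genes 6 stood higher, as did 4966 of all 10712 genes. The median of the 10 was 0.10. At an unadjusted p under 0.05 were 3 higher and 0 lower, where 9.70% of all genes were higher and 8.47% lower. Among these 3 higher genes was Piwil1, the PIWI gene also called Miwi. It was at 6.67, 6.60 and 6.51 in Δ3/Δ3 and at 6.07, 5.997 and 5.97 in Lox/Δ3 cells. The arrays of each genotype lay close together and the genotypes apart, by 0.58 ± 0.12 (SE; limma adjusted p = 0.0600). Gtsf1, a zinc finger partner of PIWI proteins, was at 0.98 ± 0.28 (SE; limma adjusted p = 0.122), with Lox/Δ3 array 1 lowest, at 7.60. Of the 18 late sperm genes with a probe 4 were tested. At an unadjusted p under 0.05 were 2 higher and 0 lower, where 9.70% of all genes were higher and 8.47% lower. They were the tektin gene Tekt1 at 0.73 ± 0.18 (SE) and the testis lactate dehydrogenase gene Ldhc at 0.45 ± 0.16 (limma adjusted p = 0.0836 and 0.195). Spaca1 and Tssk2 were at -0.03 and 0.04, with overlap (limma adjusted p = 0.943 and 0.939). Tssk2 was detected on 2 Δ3/Δ3 arrays and 1 Lox/Δ3 array.

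The E-box letters were found before genes of either direction. Among genes at an unadjusted p under 0.05 with a RefSeq window, CACGTG was present for 1 of 8 higher genes (Brdt) and for 4 of 6 lower genes (Ddx4, Mov10l1, Taf7l and Tdrd9), of which Tdrd9 was placed there by the filter. It was also present for 3 of 13 tested genes past no threshold (Stag3, Stk31 and Syce2). These counts are small and carry no test.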

How the data were processed

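Total RNA of 6 samples was turned into biotinylated cRNA and hybridised, per the labels. The authors deposited non-normalized intensity values with a detection p-value per probe and array. The deposited p-value columns carry no sample name, and each was paired with the array whose signal order it followed with 0 violations, against at least 15232 for other arrays. The authors' value table holds the same intensity values scaled to a median of 1000 per array. Scanner software is not given in the sources used here. Their number of arrays limits the precision.

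Background correction used nec of limma with an offset of 16, followed by quantile normalisation and log2. The filter kept 19652 probes that were detected (p under 0.05) on 3 or more arrays, and each gene was represented by its probe of highest mean. Symbols came from the platform annotation, updated through RefSeq of assembly GRCm38.p6, which matched 34852 of 34885 probes. Genotypes were compared with limma (lmFit, eBayes), two-sided, with Benjamini-Hochberg adjustment over 10712 genes. The fit was also run on simulated data with known differences. The noise there was drawn separately for each gene and array, so that run says nothing of deviations shared across an array. Single values were compared with exact permutation tests. The members, lists and tests were chosen with earlier results of these data known. Values on each array are given for members at an unadjusted p under 0.05, for members without overlap that differ by at least 0.58, and for Ddx4, Dazl, Sycp3, Mael, Stra8, Piwil2 and Kit; of other lists, genes past the threshold or the 2 with the smallest p. Array values of Tex19.1, Sycp2 and further probes of Brdt, Tuba3a and Ddx4 were added after they were seen. The differences of Msh4, Spaca1 and Tssk2 were added in the same way. Alternatives were other background corrections, normalisations, filters, probe-level testing, array weights, a replicate block and leaving out each array. R 4.3.3, limma 3.58.1, Python 3.11.15 and matplotlib 3.10.9 were used.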

Additional observations from a re-analysis of the deposited data

How the results depend on the processing

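No gene of the 42 passed as higher in Δ3/Δ3 (0), and the count became 2 with no background correction, 2 with an offset of 50, 2 with median scaling, 2 with the authors' values (Tuba3a and Tex19.2 in each), 1 with a stricter detection filter (Tuba3a), 2 with each probe tested (Tuba3a and Brdt), 6 with array weights (Asz1, Dpep3, Sohlh2, Tex19.2, Tuba3a and Tuba3b) and 0 to 3 when an array was left out. The cause was not tested. No gene passed as lower (0) under any of the 17 alternatives. The count at an unadjusted p under 0.05, 17, was 14 to 18 under the other settings and 11 to 16 when an array was left out, the lowest without Δ3/Δ3 array 3. Of the further lists 2 genes passed with array weights (Piwil1 and Tekt1) and 0 to 1 when an array was left out. With the replicate number as a block 1 of the 42 genes (Tuba3a) and 1 gene of the further lists (Tekt1) passed. The sample titles carry the same letters and numbers in both genotypes. The deviations of same-numbered arrays correlated at 0.36, 0.067 and 0.40. Δ3/Δ3 arrays 1 and 3 correlated best with the Lox/Δ3 array of their number, and Δ3/Δ3 array 2 with Lox/Δ3 array 3. The numbers were not taken as pairs in the main test, and whether the arrays are paired was not settled. Over all genes the 140 calls became 151 with no background correction, 157 with an offset of 50, 199 with the authors' values, 160 with the stricter detection filter, 373 with that block, 512 with array weights, 261 with median scaling, 226 over probes, 80 with detection on all arrays, 24 with no filter and 0 to 275 when an array was left out. Of 338 alternative differences of 20 named genes 335 kept their sign; Kit turned to 0.030 with array weights and ran from -0.33 to 0.10 (without Δ3/Δ3 array 1) when an array was left out, and Stra8 from -0.44 to 0.062 (without Lox/Δ3 array 1). Transcripts near the background have their differences pulled toward 0 by the offset.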
